A study of Homo sapiens with 2 samples.

Results

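The insulin-like growth factor 2 (IGF2) axis was examined through 9 genes, namely the ligand IGF2, its clearance receptor IGF2R, the RNA-binding proteins IGF2BP1, IGF2BP2 and IGF2BP3, and the secreted binding proteins IGFBP1, IGFBP2, IGFBP3 and IGFBP4. The genes were selected by symbol and not by their values, although earlier results of these data were known at the time. Of the 9 genes, 6 were measured among 16424 genes in all, while IGF2, IGFBP2 and IGFBP3 were not analysed here. The study asked which signals M2BPGi, the glycan isomer of Mac-2-binding protein, regulates in hepatocellular carcinoma cells. PLC/PRF/5, an established human hepatoma line, was kept without M2BPGi (non-treated, 0 µg/ml) or given 3 µg/ml M2BPGi for 6 h, and 1 library was made from each culture by cap analysis of gene expression (CAGE), which sequences a short tag from the 5′ end of each capped RNA. The deposited values are tags per 1000000 tags of the library (CPM), and the tags behind them numbered 24040209 in the non-treated and 24862941 in the M2BPGi-treated library.

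With 1 library per group, no difference below has a replicate check, and the conditions could not be tested against each other. Intervals in parentheses are 95% intervals that cover counting error only. Log2 ratios are M2BPGi-treated over non-treated, computed after adding 1 CPM to each value, which understates the change of low genes, and their intervals are Clopper-Pearson intervals of the tag ratio without that addition. Each capped RNA gives 1 tag whatever its length, so CPM of different genes in a library were set side by side without a length correction. Fewer cells with a transcript and less transcript per cell cannot be told apart in bulk RNA.

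IGF2 is a fetal growth factor that signals through the type 1 IGF receptor and the insulin receptor. IGF2R, the cation-independent mannose 6-phosphate receptor, carries IGF2 to the lysosome for degradation and also sorts newly made lysosomal enzymes. Secreted IGF-binding proteins hold the ligands outside the cell, whereas the IGF2BP proteins act inside it, binding IGF2 and many other mRNAs, in part as readers of N6-methyladenosine (m6A). IGF2BP1 and IGF2BP3 are mainly made in the embryo and reappear in liver cancer.

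The cell identity was checked first. AFP, the fetal albumin of hepatomas, had 695 CPM without and 566 CPM with M2BPGi, and GPC3, a hepatoma surface proteoglycan, had 62.5 and 52.2 CPM. All 11 hepatocyte markers were listed, with a sum of 1721 CPM without and 1179 CPM with M2BPGi. FGB, which encodes fibrinogen beta, was the most abundant of them, while albumin (ALB) was low, at 8.82 and 7.04 CPM. Of 8 stellate cell and fibroblast markers, 2 were listed, with a sum of 5.2 and 4.18 CPM, the most abundant being COL3A1. Of 7 Kupffer cell and macrophage markers, 2 were listed (CSF1R and PTPRC), both with 0 tags in both libraries, and 0 of the 5 endothelial and 0 of the 5 lymphocyte markers were listed. Of 4 cholangiocyte markers, 3 were listed, with a sum of 177 and 167 CPM, mostly from KRT19. The share of these markers in the differences below was not tested.

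Because CAGE tags mark transcript starts, the promoters of the genes are shown before their levels. RefSeq windows of GRCh38.p14, from 250 bases before to 50 bases after a start, matched 4 of the 6 genes with values (IGF2R, IGF2BP2, IGF2BP3 and IGFBP4). These coordinates are not those of the mapping, for which the submitters' notes name hg19. The windows lie at chr6:159968832-159969131 on the plus strand for IGF2R, chr17:40443200-40443499 on the plus strand for IGFBP4, chr3:185824993-185825292 on the minus strand for IGF2BP2, and chr7:23470442-23470741 on the minus strand for IGF2BP3. They are shown because they are the windows of the genes whose levels are described next. Capitals mark matches, on either strand, to the E-box CACGTG, the GC box GGGCGG, the TATA box TATAAA and the CCAAT box CCAAT.
IGF2R: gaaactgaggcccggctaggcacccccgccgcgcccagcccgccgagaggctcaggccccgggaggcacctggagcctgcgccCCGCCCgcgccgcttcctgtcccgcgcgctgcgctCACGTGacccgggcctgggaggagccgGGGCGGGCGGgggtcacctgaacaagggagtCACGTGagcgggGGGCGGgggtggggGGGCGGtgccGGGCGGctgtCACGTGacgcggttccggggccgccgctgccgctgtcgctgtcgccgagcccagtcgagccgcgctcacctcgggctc
IGFBP4: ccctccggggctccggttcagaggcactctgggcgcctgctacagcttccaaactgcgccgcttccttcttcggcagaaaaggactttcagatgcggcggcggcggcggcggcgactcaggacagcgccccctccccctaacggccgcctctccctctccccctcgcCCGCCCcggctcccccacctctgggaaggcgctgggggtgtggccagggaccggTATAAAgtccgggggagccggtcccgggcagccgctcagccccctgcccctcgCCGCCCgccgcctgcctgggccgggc
IGF2BP2: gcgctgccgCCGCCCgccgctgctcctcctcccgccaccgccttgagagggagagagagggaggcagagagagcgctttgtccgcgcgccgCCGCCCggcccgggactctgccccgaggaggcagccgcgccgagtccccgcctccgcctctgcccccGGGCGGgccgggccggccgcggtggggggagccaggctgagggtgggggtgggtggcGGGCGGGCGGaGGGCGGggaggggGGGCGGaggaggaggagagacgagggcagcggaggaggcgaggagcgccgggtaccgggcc
IGF2BP3: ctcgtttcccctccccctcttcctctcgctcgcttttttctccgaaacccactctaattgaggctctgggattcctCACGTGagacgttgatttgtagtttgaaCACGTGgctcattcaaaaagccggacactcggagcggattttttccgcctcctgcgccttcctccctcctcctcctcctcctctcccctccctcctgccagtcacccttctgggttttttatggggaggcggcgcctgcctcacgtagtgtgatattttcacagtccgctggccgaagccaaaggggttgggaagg

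The windows differed in composition. The IGF2R window held 3 E-boxes and 6 GC boxes at 78.7% G and C, and the IGF2BP2 window held 7 GC boxes and 0 E-boxes at 80.7%. Some GC boxes in both overlap by 2 bases. The IGFBP4 window held 1 TATA box, whose first base lies 29 bases before the start, with 2 GC boxes at 74.0% G and C. The IGF2BP3 window was the least rich in G and C of the 4 printed, at 56.3%, with 2 E-boxes and 0 GC boxes. None of the 4 printed windows held a CCAAT box. A second RefSeq window of IGF2BP2, at chr3:185821093-185821392 and not printed, held 1 TATA box and 1 CCAAT box, with 0 E-boxes and 0 GC boxes, at 35% G and C. Over 35116 windows of the same length, 7.26% held at least 1 E-box, 0.664% at least 2 and 0.094% at least 3, while 11.5% held a TATA box, 45.0% a GC box and 34.6% a CCAAT box. A match describes letters and not binding.

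**Figure D1:**
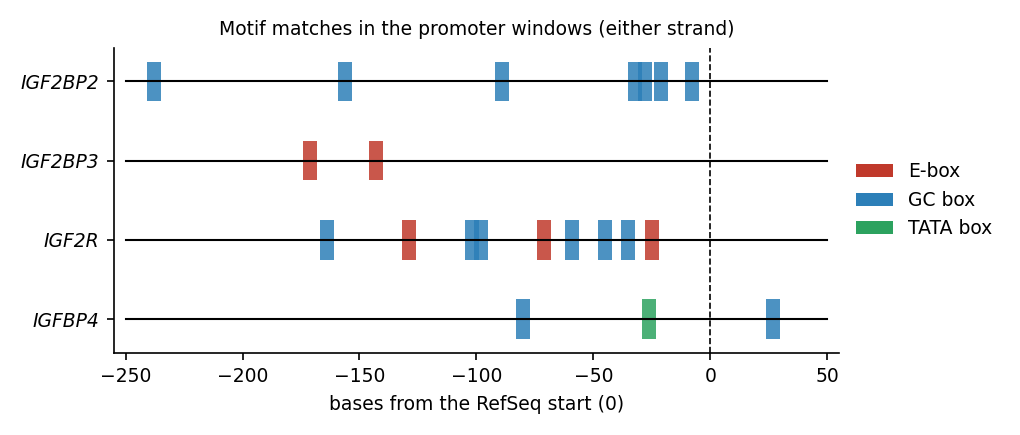
Positions of E-box, GC box and TATA box matches (coloured blocks) in the 4 printed RefSeq promoter windows, without the second window of IGF2BP2, with bases from the annotated start on the x axis and the start as a dashed line at 0. IGF2R has 3 E-boxes among 6 GC boxes, and the 1 TATA box drawn is in the IGFBP4 window.

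After 6 h with M2BPGi, the clearance receptor and IGFBP4 had lower CPM and IGF2BP2 had higher CPM beyond counting error, with changes of -17.5%, -16.7% and 11.9%. The values of IGFBP1 (-21.7%), IGF2BP3 (7.84%) and IGF2BP1 (-0.552%) differed by less than counting error. None of the 6 genes reached a fold of 1.5. Among the 13724 genes with a mean of at least 1 CPM, 1.6% were higher and 4.04% lower by that fold, 5.64% together. At a fold of 2 the shares were 0.24% and 0.43%, together 0.67%, and past a log2 ratio of 0.32 in size they were 9.04% and 18.4%, together 27.5%, and 0 of the 6 genes passed in either case. All 6 were within the central 95% of log2 ratios over those genes, from -0.67 to 0.52. The median log2 ratio of the 6 genes was -0.13, with 2 higher and 4 lower, against -0.05 over all genes tested, of which 57.0% were lower. This median depended on single genes and on transcript length. It was -0.0079 for the 5 genes with a mean of at least 10 CPM, against -0.03 over all genes of that level, and -0.0062 after the median of genes of like transcript length was subtracted from each value. Without the genes that have a near-identical copy it was -0.27.

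IGF2R had the highest level of the 6 genes in non-treated cells. It had 122 CPM (117.6 to 126.5) without and 101 CPM (96.8 to 104.7) with M2BPGi. The 2 intervals do not overlap, and the log2 ratio was -0.27 (-0.35 to -0.20), at percentile 23.0 of all genes tested. IGF2R (ENSG00000197081) lies on chromosome 6 from 159969099 to 160113507, plus strand, in the GRCh38 annotation of GENCODE v29, with a longest transcript of 14044 nt. When the tested genes were put in 10 groups by transcript length, the group of the longest, from 7243 to 34526 nt, held IGF2R and IGF2BP1. In it the median log2 ratio was -0.13, and the ratio of IGF2R less this median was -0.14. The part of transcript length in the difference was not tested.

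IGFBP4, a binding protein that is cleaved by pregnancy-associated plasma protein A, had 38.1 CPM (35.7 to 40.7) without and 31.7 CPM (29.6 to 34.0) with M2BPGi. Its log2 ratio was -0.26 (-0.40 to -0.12), and the levels do not overlap within counting error. IGFBP1, a liver binding protein whose gene insulin represses, was the lowest of the 6 genes, with 5.49 CPM (4.59 to 6.51) from 132 tags and 4.3 CPM (3.53 to 5.2) from 107 tags. Its log2 ratio was -0.29 (-0.73 to 0.03), so at this depth a difference was not detectable, although its point value was as low as that of IGF2R. IGFBP4 (ENSG00000141753) lies on chromosome 17 from 40443461 to 40457731 and IGFBP1 (ENSG00000146678) on chromosome 7 from 45888357 to 45893668, both on the plus strand. Unlike that of IGF2R, their longest transcripts are short, 2200 and 1653 nt, in length groups with medians of -0.01 and 0.08.

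The IGF2BP genes together held 217.8 CPM without and 233 CPM with M2BPGi, a log2 ratio of 0.10 (0.04 to 0.15) for their sum. IGF2BP2, the member that adult tissues also make, was the most abundant, with 98.0 CPM (94.1 to 102.1) without and 109.7 CPM (105.6 to 113.9) with M2BPGi. Its levels do not overlap within counting error, and its log2 ratio was 0.16 (0.08 to 0.24). IGF2BP3 had 50.9 CPM (48.1 to 53.8) and 54.9 CPM (52.0 to 57.9), and the interval of its log2 ratio of 0.11 (-0.0035 to 0.22) includes 0. The lower end lies close to 0. The ratio of IGF2BP3 was 0.14 after rescaling of the libraries by a factor of 1.02. That rescaling left the median log2 ratio of all genes tested at -0.03. After subtraction of the median of its length group, the ratio of IGF2BP3 was 0.17. IGF2BP1, the member first known for holding beta-actin mRNA in transport granules, had 68.8 CPM (65.6 to 72.2) and 68.5 CPM (65.2 to 71.8), a log2 ratio of -0.01 (-0.11 to 0.09). The sign of this last ratio turned, to 0.02 after the same rescaling and to 0.13 after subtraction of the median of its length group.

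The IGF2BP genes lie on separate chromosomes in GRCh38, IGF2BP1 (ENSG00000159217) on chromosome 17 from 48997412 to 49055650, plus strand, IGF2BP2 (ENSG00000073792) on chromosome 3 from 185643739 to 185825056, minus strand, and IGF2BP3 (ENSG00000136231) on chromosome 7 from 23310209 to 23470467, minus strand. In the first 500 nt of their transcripts, IGF2BP2 has 3 and IGF2BP3 has 2 near-identical copies elsewhere in GENCODE v29, at identities of 95.26% to 96.33% over the longest match of each gene. Their tags could in part belong to a copy, and how tags with several positions were treated is not given in the sources used here. The 2 copies of IGF2BP2 that are in the gene table had 0.46 and 0 CPM in non-treated and 0.24 and 0 CPM in M2BPGi-treated cells, far below IGF2BP2 itself. No such copy was found for IGF2R, IGF2BP1, IGFBP1 or IGFBP4, and the median log2 ratio of these 4 genes was -0.27.

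**Figure D2:**
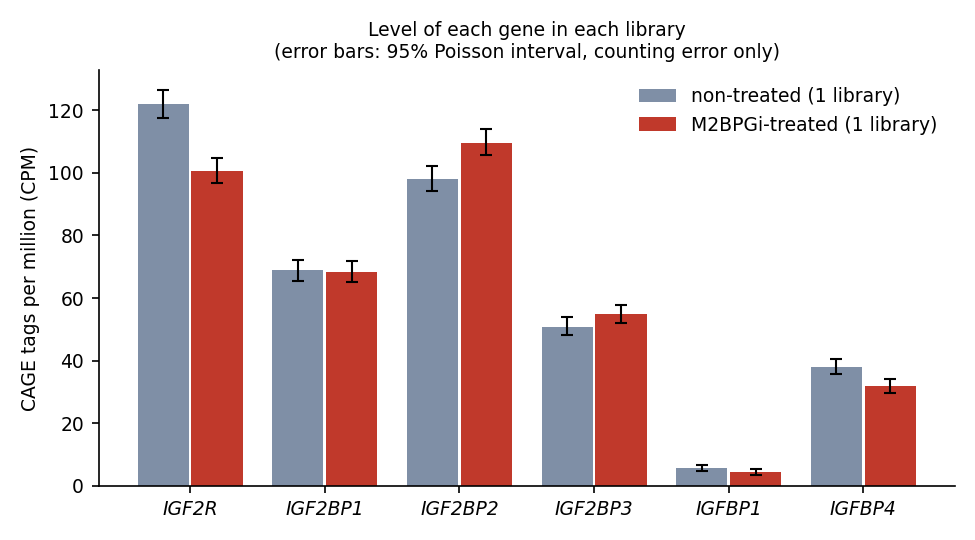
CAGE level in CPM (y axis, from 0) of the 6 genes with values in the non-treated (grey) and the M2BPGi-treated (red) library, with 95% Poisson intervals. IGF2R goes from 122 to 101 CPM and IGF2BP2 from 98.0 to 109.7 CPM, so that their order is exchanged.

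By counting error alone, the interval of the log2 ratio lay above 0 for 1 of the 6 genes (IGF2BP2) and below 0 for 2 (IGF2R and IGFBP4). Over all genes tested, 22.8% lay above and 31.5% below 0 by the same criterion. The count in the 6 genes is thus close to that of the whole table.

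**Figure D3:**
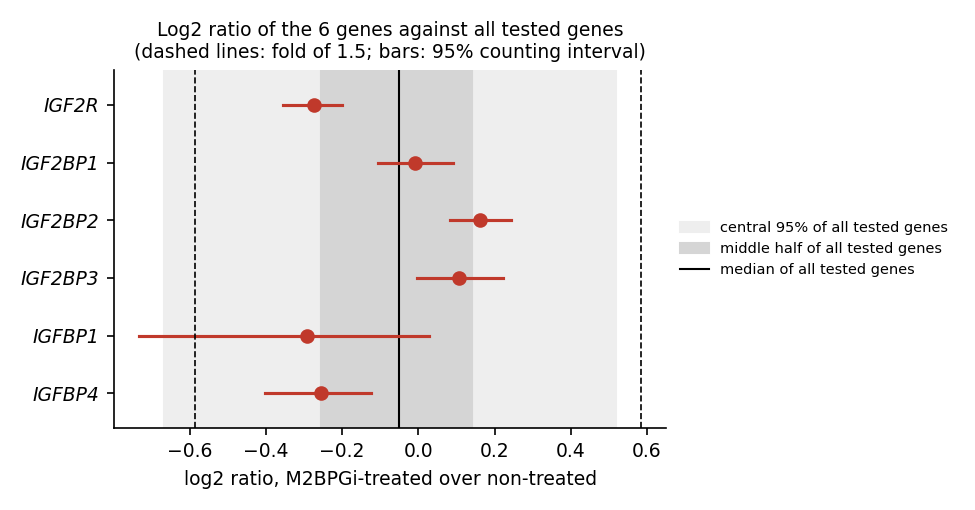
Log2 ratio of M2BPGi-treated over non-treated CPM (x axis) for each of the 6 genes, as points with the 95% counting interval of the tag ratio. All 6 points lie inside the light band with the central 95% of the 13724 tested genes and inside the dashed lines at a fold of 1.5.

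The order of levels changed in 1 place. In non-treated cells it ran from IGF2R through IGF2BP2, IGF2BP1, IGF2BP3 and IGFBP4 to IGFBP1, and in M2BPGi-treated cells IGF2BP2 stood before IGF2R. The ratio of IGF2R to IGF2BP2 tags was 1.24 (1.18 to 1.31) in the non-treated and 0.918 (0.869 to 0.969) in the M2BPGi-treated library, a pair chosen after the values were seen. The other neighbours kept their order beyond counting error, as for IGF2BP3 and IGFBP4 in the non-treated library, with a ratio of 1.34 (1.22 to 1.46), and 1.73 (1.58 to 1.89) in the M2BPGi-treated library. Within the IGF2BP family, IGF2BP2 gave 45.0% (43.7 to 46.4) of the tags in non-treated and 47.1% (45.8 to 48.4) in M2BPGi-treated cells. The share of IGF2BP1 was 31.6% (30.4 to 32.9) and 29.4% (28.2 to 30.6), and that of IGF2BP3 was 23.4% (22.2 to 24.5) and 23.5% (22.5 to 24.7). Each of these 3 pairs of intervals overlaps. Overlap of such intervals, here and below, does not show that shares or ratios are equal. Their differences between the libraries were not tested.

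Ligands and receptors of the axis were examined next. IGF1, the other IGF ligand, had 1 tag in each library. IGF1R, the signalling receptor, had 21.2 CPM without and 21.0 CPM with M2BPGi, a log2 ratio of -0.01 (-0.19 to 0.17). INSR, the insulin receptor, which in 1 of its isoforms also binds IGF2, had 25.5 CPM and 17.5 CPM, a log2 ratio of -0.52 (-0.73 to -0.36), at percentile 5.89 of all genes tested. INSR therefore gave more tags than IGF1R in non-treated cells, with a ratio of 1.20 (1.07 to 1.36), and fewer in M2BPGi-treated cells, with 0.83 (0.729 to 0.944). IGF2R gave 5.76 (5.24 to 6.34) tags per tag of IGF1R in non-treated and 4.79 (4.36 to 5.27) in M2BPGi-treated cells, and these intervals overlap narrowly. Downstream of both receptors, the adaptor IRS1 had 9.53 and 8.65 CPM and IRS2 had 65.1 and 54.1 CPM.

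**Figure D4:**
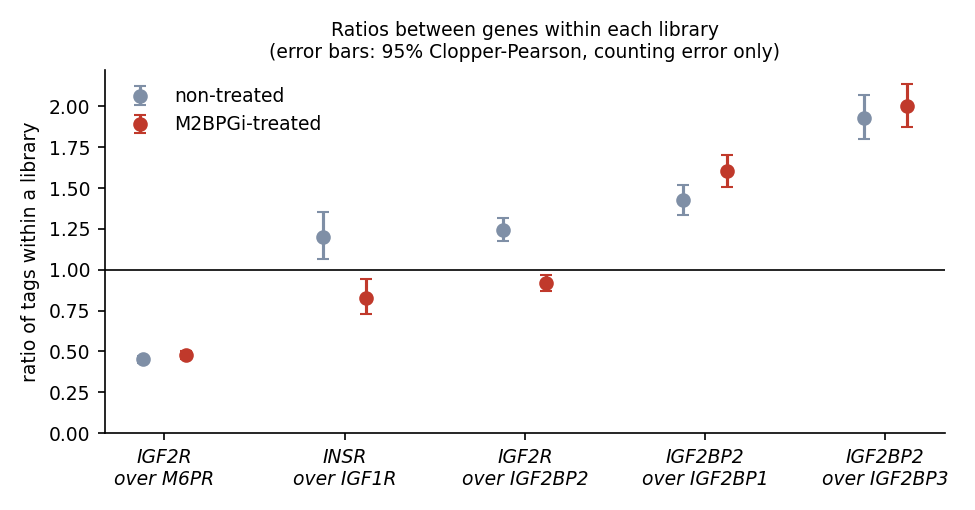
Ratio of tags between 2 genes of the same library (y axis, from 0) for 5 pairs, with 95% Clopper-Pearson intervals. INSR over IGF1R and IGF2R over IGF2BP2 lie above 1 in the non-treated library (grey) and below 1 in the M2BPGi-treated library (red), while the other 3 pairs stay on 1 side.

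Among the 5 listed IGFBP genes, most tags came from a gene outside the 9. IGFBP2, IGFBP3 and IGFBP6 were not analysed here and do not enter the shares below. IGFBP7, a low-affinity relative of the IGFBP family found in extracellular matrix, had 318 CPM without and 277 CPM with M2BPGi, a log2 ratio of -0.20 (-0.25 to -0.15). It gave 81.5% (80.7 to 82.3) of the tags of the 5 listed IGFBP genes in non-treated and 81.9% (81.0 to 82.7) in M2BPGi-treated cells. IGFBP4 gave 9.77% and 9.39%, and IGFBP1 gave 1.41% and 1.27%. IGFBPL1, a related secreted protein, had 26.8 and 24.2 CPM, and IGFBP5 had 1.75 and 1.05 CPM from 42 and 26 tags. All 5 had fewer CPM after M2BPGi, as had 57.0% of all genes tested. The sum of the 5 was 389.8 and 338 CPM, a log2 ratio of -0.21 (-0.25 to -0.16). The intervals of IGFBP1 and IGFBPL1 alone include 0.

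Of the genes that process the ligand or can cleave its binding proteins, FURIN, ADAM9 and CTSD had lower CPM with M2BPGi beyond counting error, while PCSK4 and HTRA1 differed by less than counting error. FURIN, a proprotein convertase, had 7.36 CPM without and 5.35 CPM with M2BPGi, and PCSK4, a convertase that matures pro-IGF2, had 5.28 and 5.19 CPM. ADAM9, a membrane metalloprotease, had 421 and 294 CPM, a log2 ratio of -0.52 (-0.56 to -0.48). CTSD, the lysosomal protease cathepsin D, which mannose 6-phosphate receptors sort, had 697 and 546 CPM, a log2 ratio of -0.35 (-0.39 to -0.32), and HTRA1, a secreted serine protease, had 7.65 and 7.04 CPM. STC2, stanniocalcin-2, an inhibitor of pregnancy-associated plasma proteins, had 51.3 and 64.2 CPM, a log2 ratio of 0.32 (0.22 to 0.43), whereas STC1 had 0 tags in both libraries, which allows up to 0.125 and 0.121 CPM. H19, the noncoding RNA beside IGF2 that is expressed from the maternal chromosome, had 281 and 349.9 CPM, a log2 ratio of 0.31 (0.27 to 0.36). Of the 26 genes on this list of the wider axis, 16 were listed and 14 had a mean of at least 1 CPM. Their median log2 ratio was -0.17, with 2 higher (STC2 and H19) and 12 lower, and 0 passed a fold of 1.5 in either direction. Over all genes tested the median was -0.05, with 57.0% lower. By that fold, 1.6% of all genes tested were higher and 4.04% lower. The same values are the background of each list below.

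The mannose 6-phosphate sorting genes around IGF2R had values of both signs. M6PR, the smaller, cation-dependent receptor for the same sugar tag, had 270.5 CPM without and 210.2 CPM with M2BPGi, a log2 ratio of -0.36 (-0.42 to -0.31). The ratio of IGF2R to M6PR tags was 0.451 (0.432 to 0.471) and 0.479 (0.457 to 0.503), and these intervals overlap. NAGPA, the uncovering enzyme that exposes the mannose 6-phosphate tag, had a log2 ratio of -0.45 and GGA1, an adaptor that loads the receptors into vesicles, of -0.36. The highest were PACS1, a sorting connector, with 0.36, AP1M1, a subunit of the adaptor complex AP-1, with 0.30, and VPS35, the retromer core that returns receptors from endosomes, with 0.19. AP1B1, VPS26A and VPS35 have a near-identical copy. GGA1 and GGA2 share only a near-identical stretch of 104 and 164 nt with OR10J1 and ZFAND5. The assignment of tags to these genes is uncertain. Over the 17 genes the median log2 ratio was -0.10, with 7 higher and 10 lower and 0 past a fold of 1.5.

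The other m6A genes set beside the IGF2BP readers had a median log2 ratio of -0.07 over 20 genes, with 7 higher and 13 lower and 0 past a fold of 1.5. The lowest were RBM15, which guides the methyltransferase to its sites, with -0.45 (-0.72 to -0.26), the reader YTHDF3 with -0.37 and METTL14, the partner of the catalytic subunit, with -0.36. The highest were PABPC1, the poly(A)-binding protein, with 0.33, HNRNPC, a nuclear RNA-binding protein, with 0.26 and WTAP, the scaffold of the methyltransferase, with 0.21. PABPC1, HNRNPC, WTAP and MATR3 have near-identical copies, and METTL3 shares only a near-identical stretch of 120 nt with OCEL1. It is uncertain to which locus the tags of these genes belong.

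Of 15 RNAs known to be bound by IGF2BP proteins, all mRNAs but H19, 14 had a mean of at least 1 CPM, with a median log2 ratio of 0.10, 9 higher and 5 lower. GLI1, a transcription factor of Hedgehog signalling, had 9.44 CPM without and 14.3 CPM with M2BPGi, a log2 ratio of 0.55, and HMGA2, a fetal chromatin protein, had 63.6 and 79.6 CPM, a log2 ratio of 0.32. The lowest were the drug transporter ABCB1 with -0.18, the kinase MAPK4 with -0.16 and lactate dehydrogenase A (LDHA) with -0.10. ABCB1, LDHA, ACTB, FSCN1 and LIN28B have near-identical copies, and the assignment of their tags is uncertain.

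**Figure D5:**
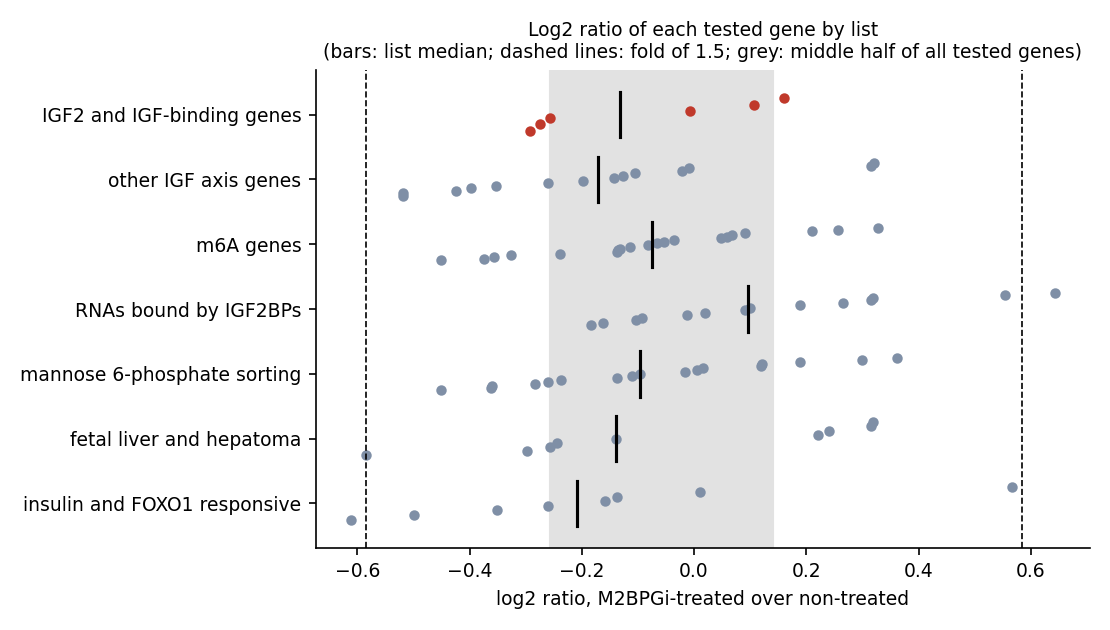
Log2 ratio of M2BPGi-treated over non-treated CPM (x axis) of each tested gene of 7 lists (rows), with the median of each list as a bar and the interquartile range of all tested genes in grey. The 6 genes of the top row spread from -0.29 to 0.16, and the RNAs bound by IGF2BP proteins have the one list median above 0.

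Fetal liver genes, which are often expressed together with IGF2 in hepatomas, had a median log2 ratio of -0.14 over 9 genes, with 4 higher and 5 lower. SALL4, a stem cell transcription factor, was the 1 gene at least 1.5-fold lower, with 18.4 CPM without and 11.95 CPM with M2BPGi and a log2 ratio of -0.59 (-0.84 to -0.41). It was just past the fold, and did not reach it after rescaling of the libraries, with a pseudocount of 5 CPM, or after subtraction of the median of its length group. AFP had a log2 ratio of -0.30 and GPC3 of -0.26, while HMGA2 with 0.32, H19 with 0.31 and PEG10, an imprinted gene of retrotransposon origin, with 0.24 were the highest. Liver genes that respond to insulin and FOXO1, as IGFBP1 does, had a median of -0.21 over 8 genes, with 2 higher and 6 lower. PCK1, a gluconeogenic enzyme, was the 1 gene past a fold of 1.5, with 8.82 and 5.43 CPM, and it did not reach it with a pseudocount of 5 CPM or after subtraction of the length group median. FOXO3, which has near-identical copies, had 3.45 and 5.59 CPM, and reached the fold only after rescaling, after that subtraction or with a pseudocount of 0.1 CPM. Only 3 of these genes had a mean of at least 10 CPM, and IRS2 (-0.26), PDK4 (-0.16) and PPARGC1A (-0.14) were all lower in M2BPGi-treated cells.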

How the data were processed

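RNA of 2 PLC/PRF/5 cultures, 1 per group, was sequenced by CAGE. According to the paper's methods, the authors removed tags of ribosomal RNA or with unread bases, aligned the rest with BWA and grouped transcript starts with CAGEr, on a mouse build. The submitters' processing notes list hg19, BWA and HISAT2, and the identifiers are human. The authors deposited CPM for each gene with 2 decimals, and the assignment of tags to genes is not given in the sources used here.

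Taking the lowest value above 0 as 1 tag, a single library total made 100% of the values whole tags within 0.005 CPM in each library (24040209 and 24862941 tags). For a count of 0 tags the 95% Poisson intervals reach 0.153 and 0.148 CPM, above the 3 tags (0.125 and 0.121 CPM) set as a floor. Log2 ratios used a pseudocount of 1 CPM over 13724 genes with a mean of at least 1 CPM, with a fold of 1.5 as threshold. Intervals (95%, Clopper-Pearson or Poisson) cover counting error only. Copies were searched with BLAST+ 2.17.0 (500 nt queries, at least 100 nt at 95% identity) in GENCODE v29. Symbols were matched through RefSeq synonyms. Python 3.11.15 and scipy 1.17.1 were used, and the scripts were tested on simulated data.

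The genes and lists were chosen with earlier results of these data known. Named genes are the 9 genes, the listed genes of the wider axis and, of each other list, the 3 highest and 3 lowest with a mean of at least 10 CPM, plus genomic neighbours of IGF2, IGFBP1, IGFBP2 and IGFBP3. The genes nearest to IGF2 in level, also planned, were not determined, since IGF2 was not analysed here. PCK1 and FOXO3 were named after their values were seen. Some genes of the list of bound RNAs enter its counts and median but are not reported here. Tags read back served only for intervals, shares and ratios within a library. The alternatives tried were other pseudocounts, filters, folds and scalings.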

Additional observations from a re-analysis of the deposited data

How the results depend on the processing

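No paired analysis was possible because each group holds a single library. For the same reason no library could be left out. The planned scaling by TMM factors and the planned exact count test with an assumed variation were not run. The tags read back from the rounded CPM were whole within the rounding of 0.005 CPM, but did not all meet a stricter tolerance set for their use as counts in such a test. Among the 6 genes, 0 reached the fold threshold in either direction under each alternative run. Single genes gave 35 values under alternatives. Of these, 2 left the counting interval (IGF2R and IGF2BP1 after the length subtraction), and 2, both of IGF2BP1, had the other sign. The median log2 ratio, -0.13, was -0.0079 with a mean of at least 10 CPM, which removes IGFBP1, and -0.27 when genes with a near-identical copy were dropped, which removes IGF2BP2 and IGF2BP3. It was -0.0062 after subtraction of the median of the transcript length group, an alternative added after the data were seen. Of 96 counts of the other lists, 24 moved, to between 0 and 5 genes. With a pseudocount of 0.1 CPM, 1 gene of the wider IGF axis was lower, 2 RNAs bound by IGF2BP proteins and 1 insulin responsive gene were higher. With 5 CPM, 0 bound RNAs were higher, and 0 fetal liver and 0 insulin responsive genes lower. After rescaling, 0 fetal liver genes were lower and 1 insulin responsive gene higher. With a mean of at least 10 CPM, 0 insulin responsive genes were lower. At a fold of 2, 0 bound RNAs were higher and 0 fetal liver and 0 insulin responsive genes lower. At a lower fold (log2 0.32), 5 genes of the wider axis were lower, 1 m6A gene was higher and 4 lower, 2 bound RNAs were higher, 1 sorting gene was higher and 3 lower, and 1 insulin responsive gene was higher and 3 lower. After subtraction of the length median, 2 bound RNAs and 1 insulin responsive gene were higher, and 0 fetal liver and 0 insulin responsive genes lower. A lower fold admits more genes, with 9.04% of all genes tested higher and 18.4% lower at log2 0.32. For the other alternatives the cause was not tested. Depth limits genes such as IGFBP1, with 132 and 107 tags, and the missing replicates limit every comparison.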

Other observations

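The genes next to those of the axis that were not analysed here gave values of their own. On the lower-coordinate side of IGF2 in GENCODE v29, the nearest listed gene was H19, described above, and on the other side the ribosomal protein pseudogene RPL26P30, with 188 CPM without and 215 CPM with M2BPGi. IGFBP1 is the nearest listed neighbour of IGFBP3, and IGFBP5 that of IGFBP2 on its higher-coordinate side. The far neighbour of the IGFBP1 and IGFBP3 pair, TNS3, which encodes the focal adhesion protein tensin-3, had 30.1 and 29 CPM, a log2 ratio of -0.05 with an interval of -0.20 to 0.10. On the near side, the septin pseudogene SEPT7P2 had 17.3 and 13.4 CPM. The proteasome pseudogene PSMB3P2, beside IGFBP2, had 2.33 and 3.06 CPM. Tags of pseudogenes may belong to their parent genes.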
